A study of Mus musculus with 4 samples.

Results

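The replication-dependent histone cluster genes are taken here as all rows of the deposited count table whose symbol begins with Hist1h, Hist2h, Hist3h or Hist4h. There are 68 such rows among 24062, of which 54 lie in the Hist1 cluster on chromosome 13, 10 in the Hist2 cluster on chromosome 3, 3 in the Hist3 cluster on chromosome 11 and 1 (Hist4h4) on chromosome 6. By class they comprise 6 H1 genes, 18 H2A, 19 H2B, 12 H3 and 13 H4 genes. A read was counted for 49 of the 68 in at least 1 library, and 19 had 0 counts throughout.

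RNA came from gBT-I cells, CD8+ T cells whose transgenic receptor recognises a glycoprotein B peptide from herpes simplex virus. Per the labels, donor splenocytes from SPF (specific pathogen free) mice were stimulated in culture with that peptide and LPS, received IL-1 on days 2 and 3, and were put into the vein of C57BL/6 recipients on day 4. Recipients were kept SPF or germ free (GF, without a microbiota). Splenic gBT-I cells were sorted 7 days after transfer, giving 2 libraries of SPF and 2 of GF recipients, so that both groups carry the transgene and share the culture step. The sources used here do not state the age of the mice or whether a library holds 1 mouse or a pool.

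Histone cluster genes supply the bulk of chromatin protein when DNA is copied. Pairs of H2A, H2B, H3 and H4 form the core that DNA wraps around, and H1 is the linker histone that binds where DNA enters and leaves it. Messages of these genes end in a short stem-loop in place of a polyA tail. The stem-loop is bound by SLBP (stem-loop binding protein), and the messages are made and destroyed with S phase. Some cluster genes also give longer, polyadenylated messages in cells that have stopped dividing. The TruSeq RNA kit named in the labels captures RNA by its polyA tail in its standard form, so a message ending at the stem-loop is poorly captured by it. The counts do not tell the message forms of a gene apart.

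The stem-loop is shown for a member of each class, because reads are compared here by where the annotated transcript ends relative to it. The lines give the most abundant member of each class, for H2B the most abundant that holds the element, and Hist1h4d as an example of the more frequent H4 form, from GENCODE M21 transcripts (GRCm38, the assembly of mm10). Capitals mark the 16 bases of the stem-loop, and 5 flanking bases stand on each side.
Hist1h1c (H1): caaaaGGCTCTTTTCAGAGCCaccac
Hist3h2a (H2A): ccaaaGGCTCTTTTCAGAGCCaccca
Hist3h2ba (H2B): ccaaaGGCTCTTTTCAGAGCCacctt
Hist1h3a (H3): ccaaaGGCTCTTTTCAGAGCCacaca
Hist1h4i (H4): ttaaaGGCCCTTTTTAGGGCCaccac
Hist1h4d (H4): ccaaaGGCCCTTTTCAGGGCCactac

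The motif was these 16 letters with any base allowed at places 4, 10 and 13 counted from the first capital, searched on the transcript strand only. It was found in 42 of the 68 members and in 45 of 21901 protein-coding genes (0.205%). The other 3 genes were H2afx, H2bfm and Trim17. It took 5 forms. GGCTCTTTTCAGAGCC was in 26 members of the H1, H2A, H2B and H3 classes, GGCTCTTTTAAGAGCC in 6 and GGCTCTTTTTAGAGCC in 1, while the 9 H4 members that held the motif had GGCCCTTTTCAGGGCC in 7 and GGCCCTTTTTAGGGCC in 2. Of the 26 members in which these letters were not found, 13 have annotated transcripts that hold no base past the stop codon.

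Reads concentrated in a few members. Hist2h2be, an H2B gene on chromosome 3 (chr3:96221119-96223738, plus strand, 1 exon), had 162 and 124 counts in the SPF libraries numbered 1 and 2, and 144 and 106 in the GF libraries in that order. These 536 counts are 23.9% of the 2238 counts of all members. Hist1h1c, a linker histone gene (chr13:23738808-23740367, plus strand), had 44, 121, 76 and 91 counts in the same order. Hist3h2a, an H2A gene (chr11:58954685-58956830, plus strand), had 93, 78, 89 and 62. Together these 3 genes held 53.2% of the counts, the top 5 held 65.9% with Hist1h4i and Hist3h2ba added, and the top 10 held 81.5%.

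**Figure D1:**
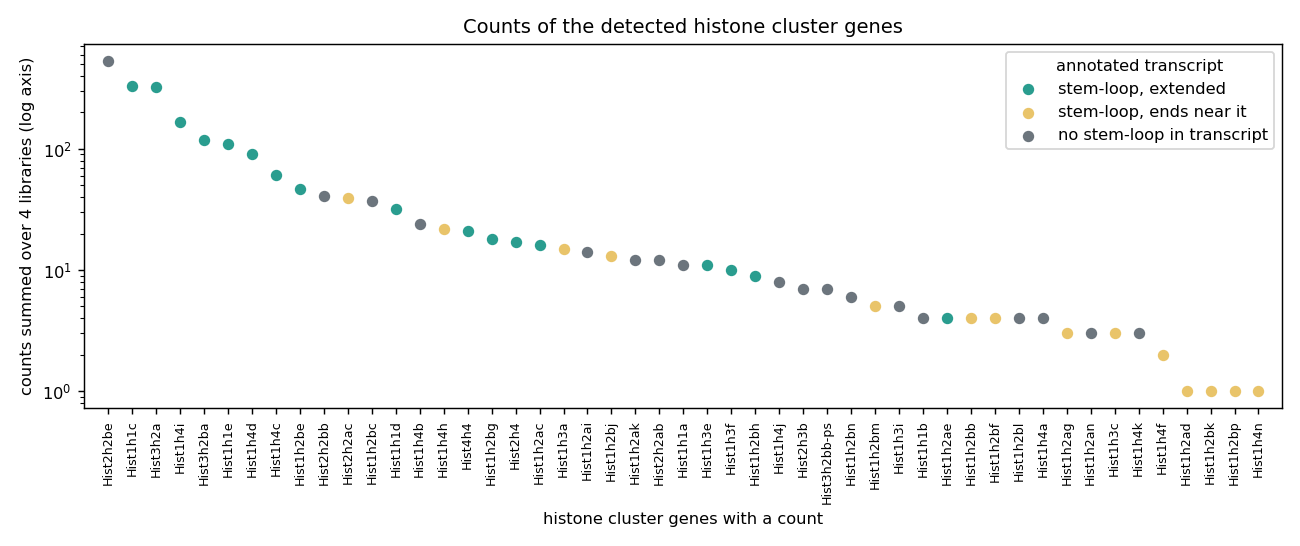
Counts summed over the 4 libraries (log axis) for the 49 histone cluster genes with a count, ranked, with colour for the annotated transcript: extended at least 100 bases past the stem-loop, ending within 100 bases of it, or without the motif. Hist2h2be leads with 536 counts, and the next 8 genes, from Hist1h1c (332 counts) to Hist1h2be (47 counts), are all of the extended kind.

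The other detected members were scarce. Only 30 members had a count in all 4 libraries, 27 had 10 or more counts in sum, and 22 had 1 to 9. A mean of at least 1 CPM (counts scaled to 1000000 of the TMM-scaled library size) was reached by 8 members. A gene at 0 throughout could hold up to 3 counts of the pooled 54221898, or 0.0553 CPM, which covers counting error only. The 19 genes at 0 include the testis histone genes Hist1h1t, Hist1h2aa and Hist1h2ba, 8 H2A genes in all and 6 of the 12 H3 genes.

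Most histone reads, though not most of the detected genes, lay in members annotated with a long 3' end. The 21 members whose transcript runs at least 100 bases past the stem-loop held 1386 counts (61.9%). They make up 17 of the 49 genes with a count, and 15 of them had 10 or more. The 21 whose transcript ends within 100 bases of it held 114 counts (5.09%), and 4 had 10 or more. The 26 without the motif held 738 counts (33.0%), 536 of them from Hist2h2be, whose transcript runs 2192 bases past its stop codon. By another measure, the 17 members with 500 or more bases past the stop codon, 13 of them with a count, held 72.9% of the counts, and 36 of the other 51 also had a count. In Hist1h1c the transcript extends 840 bases past the stem-loop, in Hist3h2a 1643, in Hist1h4i 330 and in Hist3h2ba 169, against 37 in Hist1h3a, the most abundant H3 gene with 15 counts. These are descriptions of annotated transcripts, and the 3 kinds also differ in length (medians of 1261, 485 and 411 bases).

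A polyA signal, AATAAA or ATTAAA in the last 50 bases of the longest transcript, was found in 16 of the 68 members, against 72.2% of protein-coding genes. These 16 held 71.4% of the member counts. They include Hist2h2be, Hist1h1c, Hist3h2a and Hist3h2ba with AATAAA and Hist1h4i with ATTAAA. The signal was not found in Hist1h1e (110 counts), Hist1h4d (91) or Hist1h4c (61), so members with reads were not all of this kind.

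Shared transcript sequence also went with the counts. Of each member's 50-base words, a median of 48.2% also occur exactly in a transcript of a gene elsewhere in the genome, and no source used here states whether the authors' counting kept such reads. The 31 members with 50% or more of their words shared held 113 counts (5.05%), and 14 of them were at 0. The 37 below that held 2125 counts, and 5 were at 0. Hist2h2be shares none of its words and Hist3h2a 2.0%, while the near-identical pair Hist2h2aa1 and Hist2h2aa2 share 96.3% and all of theirs and had 0 counts. Counts of single members are therefore uncertain where the share is high, as in Hist1h3e (73.4%) or Hist1h2ai (90.1%). Extended members shared less (median 18.8%) than those ending near the stem-loop (60.4%), so both features move with the counts, and their parts in them were not tested.

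**Figure D2:**
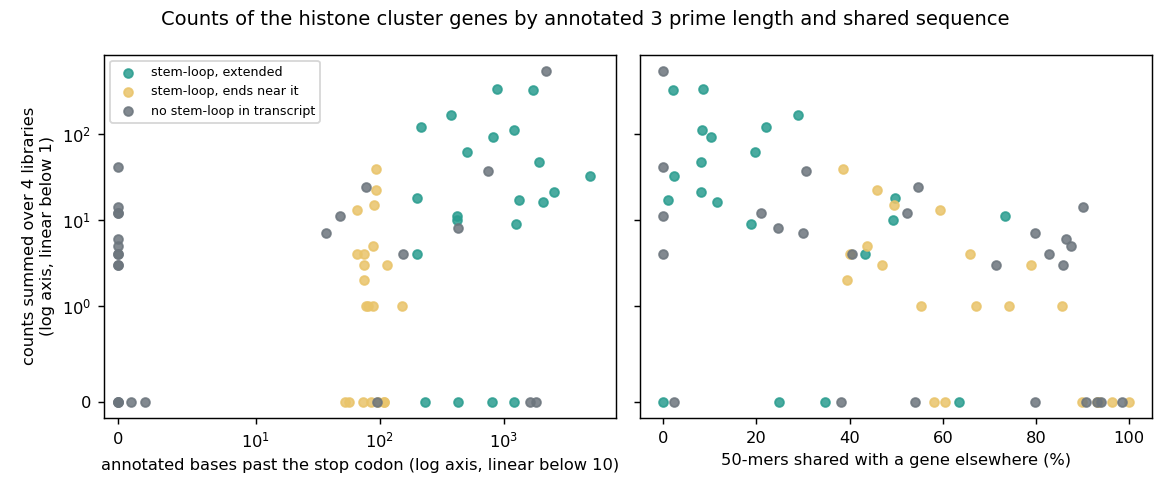
Counts summed over the 4 libraries (log axis, linear below 1) for each histone cluster gene against the annotated bases past the stop codon (left; 1 pseudogene has no stop codon and is not shown there) and against the percent of its 50-base words found in a gene elsewhere (right). No gene with 50% or more shared words had over 24 counts.

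Among the 5 classes, H2B genes had the most reads in sum and H3 genes the fewest. These are sums over 6 H1, 18 H2A, 19 H2B, 12 H3 and 13 H4 genes. Hist2h2be alone held 536 of the 852 H2B counts, where the whole classes H1, H2A and H4 held 489, 426 and 420. Per kilobase of exonic length the summed level was 12.6 CPM per kb for H2B, 10.1 for H4, 6.48 for H2A, 5.35 for H1 and 1.47 for H3 (means of 4 libraries). H2B and H4 overlapped between libraries, with 10.5 to 14.4 against 8.56 to 12.5, as did H2A and H1, with 4.85 to 8.25 against 3.63 to 7.11. Within every library H2B lay above H4 and H4 above H2A, and H3, at 0.94 to 2.17, lay below all other classes. Hist2h2be gave 3.85 CPM per kb of the H2B mean, and without it that mean would lie below the H4 mean. The lengths are those of GENCODE M21 and not of the authors' annotation, which no source used here names. Length scaling does not make the classes fully comparable, since polyA capture depends on how a message ends, and the median share of 50-base words found elsewhere was 1.15% for H1, 73% for H2A, 43.8% for H2B, 57.2% for H3 and 39.5% for H4.

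Share of counts by class was 38.1% ± 6.7 in SPF and 38.2% ± 3.9 in GF for H2B (SD, n = 2 each). For H2A it was 20.2% ± 2.2 and 17.9% ± 1.5, for H4 19.4% ± 2.0 and 18.2% ± 1.6, and for H3 2.33% ± 0.74 and 2.16% ± 0.82. H1 varied most between replicates. Its share was 12.8% (95% Wilson interval 10.3 to 15.9) in SPF replicate 1 and 27.2% (23.9 to 30.8) in SPF replicate 2, against 20.2% (17.1 to 23.8) and 26.8% (23.2 to 30.8) in GF. In all 5 classes the shares of the GF and SPF libraries overlapped.

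The replacement histone genes, which give polyadenylated messages and are expressed outside S phase as well, had far more reads per kilobase. H3f3a and H3f3b, which both encode H3.3, summed to 410 and 261 CPM per kb in SPF and 328 and 239 CPM per kb in GF, and exceeded the 12 H3 cluster genes 120 to 345 times. The H2A variant genes H2afz (H2A.Z), H2afv, H2afj, H2afx and H2afy (macroH2A) exceeded the H2A cluster genes 44.8 to 86.9 times. H2afx, which is among them, also holds the stem-loop motif. For H1 the gap was smaller, as H1f0 (H1.0), with H1fx listed at 0, exceeded the H1 cluster genes 1.80 to 7.40 times. The H1 range ran from SPF replicate 2 to GF replicate 1. These are ratios of counted reads and not of messages in the cell. A cluster message that ends at the stem-loop is poorly captured by the kit in its standard form. Cluster genes of H2A and H3 also share a median of 73% and 57.2% of their 50-base words. The part of either in these ratios was not tested.

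**Figure D3:**
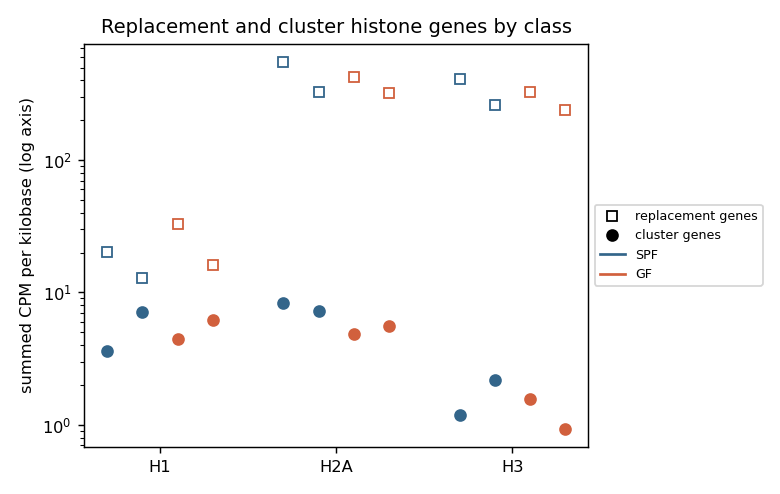
Summed CPM per kilobase (log axis) of replacement genes (open squares) and cluster genes (filled circles) for H1, H2A and H3, with 4 libraries per class from left to right: SPF replicates 1 and 2 (blue) and GF replicates 1 and 2 (orange). The separation is widest for H3, at 120 to 345 times, and narrowest for H1. It is a ratio of counted reads, and polyA capture depends on how a message ends.

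Between recipients, summed histone cluster reads were lower in GF on the TMM scale. The 68 genes together measured 48.3 and 44.4 CPM in SPF, with 95% Poisson intervals of 44.3 to 52.5 and 41.0 to 48.0, and 37.5 (34.4 to 40.7) and 36.3 (33.2 to 39.6) CPM in GF. The GF pair lay wholly below the SPF pair, and the mean log2 difference was -0.33, where the SD of the log2 levels within groups was 0.065. For the single classes that SD was larger, at 0.51 for H1, 0.20 for H2A, 0.27 for H2B, 0.50 for H3 and 0.18 for H4. Between the SPF replicates H1 rose and H2B fell, which partly cancels in the sum. No p is given for a sum over chosen genes, and an exact two-sided permutation test of 2 against 2 libraries cannot go below 0.33. Libraries also differed with transcript length. For the 1151 tested genes of 1000 to 2000 exonic bases the median log2 fold change in GF was -0.31, and for the 349 under 1000 bases -0.19, against 0.10 for those over 4000. With that length trend removed from each library, a step added after seeing the data, the totals were 37.8 and 49.3 CPM in SPF and 36.6 and 44.1 CPM in GF, so the groups overlapped, with a log2 difference of -0.10.

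By class, the difference between recipients was not tested against that of another class. H2A genes summed to 10.5 and 8.26 CPM in SPF against 7.10 and 6.08 CPM in GF (log2 difference -0.50), and H4 genes to 10.04 and 7.98 against 6.42 and 7.01 CPM (-0.42), with no overlap in either class. H2B genes had 20.7 and 14.8 against 15.4 and 12.9 CPM (-0.32), and the groups overlapped. H1 genes had 6.20 and 12.1 against 7.58 and 9.73 CPM, a difference of -0.01 with the GF libraries between the SPF pair. H3 genes summed to 10, 18, 15 and 8 counts, which allows no statement at this depth. With the length trend removed, H2A stayed apart (8.33 and 9.12 against 6.96 and 7.25 CPM), H2B came apart (17.1 and 16.2 against 15.01 and 15.1) and H4 overlapped (6.95 and 9.27 against 6.22 and 9.18).

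**Figure D4:**
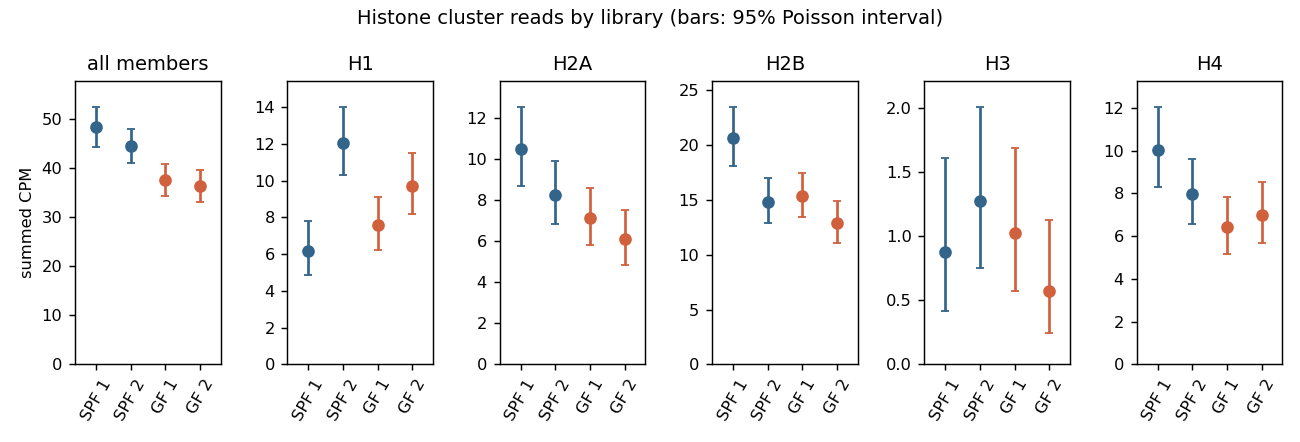
Summed CPM per library on the TMM-scaled library size, for all 68 histone cluster genes and for each class, with 95% Poisson intervals for counting error (blue SPF, orange GF; each panel has its own axis from 0). All members, H2A and H4 have both GF points below both SPF points, while H1 and H3 overlap widely.

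No single member passed the test between the groups. Only 10 of the 68 members had enough reads for the edgeR filter on low counts: Hist1h1c and Hist1h1e of H1, Hist3h2a of H2A, Hist2h2be, Hist3h2ba, Hist1h2be and Hist1h2bc of H2B, and Hist1h4i, Hist1h4d and Hist1h4c of H4. None of the 10 passed edgeR's quasi-likelihood test after Benjamini-Hochberg adjustment over 11271 genes (background 0% called), and the smallest adjusted p among them was 0.86. At an unadjusted p under 0.05 there were 0 of the 10, against 3.22% of all tested genes (2.17% higher and 1.05% lower in GF), and the other tools run also called 0. Fitted values were lower in GF for 9 of the 10 and higher for 1, against 50.3% and 49.7% of all tested genes, with a median log2 fold change of -0.33 against -0.00 over all genes. With the transcript length trend removed that count was 5 of 10. In 1 gene, Hist1h4d, the GF pair lay wholly below the SPF pair, and in 0 genes wholly above it, where the background is 16.4% and 16.8% of tested genes. The filter lay between Hist1h2bc, tested with 37 counts in sum, and Hist2h2bb, not tested with 41.

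Among H2B genes, Hist2h2be measured 14.1 and 8.76 CPM in SPF and 9.83 and 7.58 CPM in GF, a log2 fold change of -0.39 (SE 0.36, edgeR adjusted p = 0.86). SPF replicate 1 stood above the other 3 libraries, and GF replicate 1 lay above SPF replicate 2. Hist3h2ba measured 2.88 and 1.69 CPM in SPF and 2.87 and 1.43 CPM in GF, with the GF pair spanning about the same range as the SPF pair (-0.08, SE 0.55). Hist1h2be had 1.22 and 0.92 against 0.48 and 0.93 CPM (-0.60, SE 0.58), and its annotated gene overlaps that of Hist1h1e on the same strand. Hist2h2bb, with 5, 17, 10 and 9 counts, was not tested. Hist1h2bc, which was named after its values were seen, had 9, 13, 2 and 13 counts.

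Among the linker histone genes the groups overlapped in both that were tested. Hist1h1c measured 3.84 and 8.54 CPM in SPF and 5.19 and 6.51 CPM in GF (log2 fold change -0.09, SE 0.47). Both GF libraries lay between the SPF libraries. Hist1h1e, the 1 tested member with a positive fitted value, measured 1.66 and 2.12 against 1.84 and 2.43 CPM (0.17, SE 0.43). Hist1h1d had 6, 16, 7 and 3 counts, Hist1h1a 1, 3, 0 and 7, and Hist1h1b, the remaining somatic H1 gene, 4 in sum.

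Of the H2A genes, Hist3h2a measured 8.12 and 5.51 CPM in SPF and 6.08 and 4.43 CPM in GF (-0.37, SE 0.38), overlapping between groups. Hist2h2ac had 8, 18, 6 and 7 counts, Hist1h2ac 5, 8, 2 and 1, and Hist1h2ai 4, 4, 2 and 4. In Hist2h2ac and Hist1h2ac both GF libraries were lower, but neither had enough reads for a test. Without Hist3h2a the H2A sum differed by -0.97 on the log2 scale and not by -0.50.

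The H4 genes encode the most conserved core histone. Hist1h4i (chr13:22040636-22041362, minus strand) measured 4.28 and 2.61 CPM in SPF and 2.32 and 3.29 CPM in GF (-0.29, SE 0.45), with the GF libraries overlapping the SPF pair. Hist1h4d had 27 and 24 counts in SPF against 22 and 18 in GF, with no overlap in CPM (-0.53, SE 0.45, edgeR adjusted p = 0.86), and the smallest unadjusted p of the tested members, 0.29. Hist1h4c measured 1.31 and 1.13 against 1.23 and 0.86 CPM (-0.22, SE 0.49). Hist1h4b had 6, 6, 7 and 5 counts.

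H3 genes gave the least data. Hist1h3a had 3, 8, 2 and 2 counts, Hist1h3e 2, 3, 4 and 2, Hist1h3f 4, 2, 3 and 1, and Hist2h3b 0, 2, 2 and 3. None was tested. The other H3 genes had at most 5 counts in sum, and across all classes the members not named here had 0 to 22 counts.

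**Figure D5:**
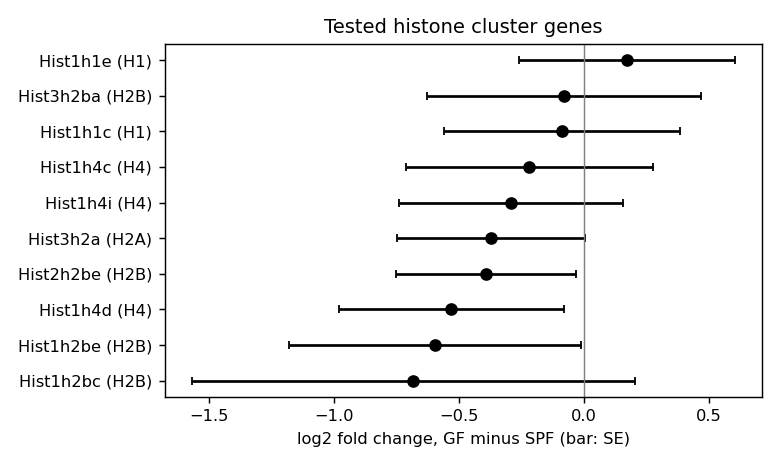
Log2 fold changes of GF against SPF with their standard errors for the 10 tested histone cluster genes, from the edgeR quasi-likelihood fit. Values run from -0.68 (Hist1h2bc) to 0.17 (Hist1h1e).

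Promoters of 62 members were matched in the RefSeq table (63 entries, GRCm38.p6), and 3 are printed because they belong to the leading H1, H2A and H4 genes. Hist2h2be and Hist1h3a, which lead H2B and H3, were not matched and are not among these entries. Each shows the 250 bases before the annotated start, with any match to a motif, on either strand, in capitals. The first motif was CCAAT, the box bound by NF-Y. The second was the TATA box form TATAAA. The third was ATTTGCAT, the octamer bound by OCT1. Each was searched separately on both strands, and none contains another.
Hist1h1c, chr13:23738557-23738806, plus strand: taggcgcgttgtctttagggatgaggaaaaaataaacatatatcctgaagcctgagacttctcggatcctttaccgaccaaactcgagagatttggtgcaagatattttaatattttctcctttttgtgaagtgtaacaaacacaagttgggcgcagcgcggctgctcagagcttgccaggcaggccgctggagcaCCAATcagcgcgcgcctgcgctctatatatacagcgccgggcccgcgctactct
Hist3h2a, chr11:58954435-58954684, plus strand: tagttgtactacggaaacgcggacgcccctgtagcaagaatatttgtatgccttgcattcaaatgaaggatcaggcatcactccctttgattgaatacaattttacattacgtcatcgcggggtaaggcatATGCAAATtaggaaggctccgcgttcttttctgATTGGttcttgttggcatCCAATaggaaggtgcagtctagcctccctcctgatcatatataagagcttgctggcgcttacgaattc
Hist1h4i, chr13:22041363-22041612, minus strand: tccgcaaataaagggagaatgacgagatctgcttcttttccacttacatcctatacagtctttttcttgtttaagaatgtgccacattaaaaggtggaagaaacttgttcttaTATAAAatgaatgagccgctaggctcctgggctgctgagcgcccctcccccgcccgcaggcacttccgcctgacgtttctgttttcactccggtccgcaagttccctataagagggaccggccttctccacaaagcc

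CCAAT was found in 82.5% of the member entries and in 33.8% of all 32851 promoters in the table. It was in all 6 H1, all 18 H2A and all 17 H2B entries, in 8 of 10 H3 entries and in 3 of 12 H4 entries. TATAAA was in 29 of the 63 member entries against 12.4% of all. ATTTGCAT, known from H2B promoters, was in 22.2% against 1.6%, in 7 of 17 H2B and 7 of 18 H2A entries and in 0 of the H1, H3 and H4 entries. Several H2A and H2B genes lie head to head. In GENCODE, Hist1h2bf (minus strand) ends at 23574196 and Hist1h2ad (plus strand) starts at 23574381. The stretches searched for such a pair can overlap, so 1 match can count for both genes. The H2A and H2B entries are therefore not all separate, and shared matches were not counted. A match is a description of these letters and says nothing of binding.

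Genes around the histone cluster were tested from lists of related functions. Of 30 genes that process or degrade histone messages, 0 passed the test, and 13 were fitted higher and 17 lower. An unadjusted p under 0.05 was found for 1, which was lower in GF, against 1.05% of all tested genes. The GF pair lay wholly below the SPF pair in 7 of the 30 and wholly above in 0, against 16.4% and 16.8% of all tested genes. Slbp, which encodes the stem-loop binding protein and was named for that role, measured 168 and 116 CPM in SPF and 109 and 110 CPM in GF (-0.38, SE 0.25). Ncbp2 of the cap-binding complex measured 75.7 and 45.8 against 34.7 and 37.2 CPM (-0.76, SE 0.30). Cstf2t, a polyadenylation factor gene, had 110.4 and 79.1 against 67.4 and 58.9 CPM (-0.58, SE 0.25), and Snrpg, a core snRNP protein gene, 198 and 103 against 101.2 and 80.3 CPM (-0.73, SE 0.36). Snrpe (-0.72, SE 0.41) overlapped between groups, as did Srrt, the most abundant of the list (0.22, SE 0.25). Values of this and the following lists are not corrected for transcript length. The median over tested genes was -0.31 at 1000 to 2000 exonic bases and 0.10 over 4000.

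Histone chaperone and supply genes went both ways, with 12 of 25 fitted higher and 13 lower, and 0 called. The GF pair was wholly above in 7 and wholly below in 6, against 16.8% and 16.4% of all tested genes. An unadjusted p under 0.05 was found for 1 gene, higher in GF, against 2.17% of all tested genes. Chaf1a, of the assembly factor that deposits new H3 and H4 behind the fork, measured 3.06 and 4.45 CPM in SPF against 11.9 and 6.65 CPM in GF (1.30, SE 0.44). Asf1a, an H3-H4 chaperone gene, measured 39.03 and 24.1 against 23.2 and 18.2 CPM (-0.61, SE 0.32), and Set 546 and 368 against 335 and 306 CPM (-0.51, SE 0.27). Mms22l had 16.8 and 20.7 against 25.4 and 25.7 CPM (0.44, SE 0.24), and Npm1, the most abundant, 945 and 627 against 598 and 532 CPM (-0.48, SE 0.28). None of these passed the test.

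Among 9 tested replacement and variant histone genes, 7 were fitted lower and 2 higher, 0 passed, and the groups overlapped in each. H1f0 had 41.4 and 26.3 CPM in SPF and 67.5 and 33.04 CPM in GF (0.57, SE 0.42), H2afv -0.48 (SE 0.40), H3f3a -0.41 (SE 0.35), H2afx -0.45 (SE 0.39) and H3f3b -0.11 (SE 0.30).

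S phase and M phase genes are given beside the histone genes because histone messages rise in S phase. Of 39 S phase genes, which include Slbp, 0 passed, 16 were fitted higher and 23 lower, with a median of -0.08. The GF pair was wholly above in 10 and wholly below in 11, against 16.8% and 16.4% of all tested genes. An unadjusted p under 0.05 was found for 1 gene in each direction, against 2.17% higher and 1.05% lower of all tested genes. E2f2 measured 104.9 and 98.7 CPM in SPF against 203 and 206 CPM in GF (1.01, SE 0.19). Prim1 had -0.66 (SE 0.23), Tk1 0.63 (SE 0.27), Ccna2 1.85 (SE 0.82) and Pcna, the most abundant, -0.46 (SE 0.24). Of 19 tested M phase genes 0 passed, and 19 were fitted higher, with a median of 1.13. The GF pair was wholly above the SPF pair in 14 of the 19, against 16.8% of all tested genes, and 9 had an unadjusted p under 0.05, all higher in GF, against 2.17%. Mki67 had 1.92 (SE 0.44), Cenpf 2.84 (SE 0.69), Hmmr 1.93 (SE 0.61), Kif11 1.19 (SE 0.38) and Top2a 1.08 (SE 0.37). The summed M phase list differed by 1.09 on the log2 scale and the histone cluster total by -0.33, each relative to all genes and without length correction. With the length trend removed the histone total differed by -0.10 and the groups overlapped. The M phase sum is not given with that step. Messages that end at the stem-loop are also poorly captured by polyA selection. The part of capture or of transcript length in the difference between these sums was not tested.

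Small RNAs that also lack a polyA tail were counted as a further measure of such RNA in these libraries. The 127 rows for small nucleolar and Cajal body RNAs, Rmrp, Rpph1 and similar genes summed to 199 and 256 CPM in SPF and 217 and 247 CPM in GF, which is 4.13 to 6.81 times the histone cluster total. Groups overlapped in this sum, and many of these RNAs lie in introns of other genes, so reads of the host may be included. Of 62 tested, 0 passed, 38 were fitted higher and 24 lower. Snord35a had -0.87 (SE 0.41), Snora61 -0.61 (SE 0.36), Snord72 -0.86 (SE 0.53), Snord35b 0.44 (SE 0.28) and Snord96a, the most abundant, 0.15 (SE 0.31).

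Total counts were 11544960 and 14026051 in SPF and 14219354 and 14431533 in GF, and replicates differed by more than sampling noise, so each counted as 1 sample. All 8 CD8 T cell markers had counts, summing to 5378 to 7204 CPM of plain library size. B cell markers (10 of 10 with counts) followed the replicate number, at 107 and 131 CPM for number 1 and 28.2 and 30.1 CPM for number 2. Markers of CD4 and regulatory T cells summed to 110 to 137 CPM, NK cells 39.4 to 81.0, myeloid cells 84.7 to 123 and plasma cells 106 to 139 CPM. Erythroid markers summed to 0.77 to 2.43 CPM with all 6 globin genes at 0, and platelet markers to 2.08 to 4.50 CPM with Pf4 and Gp9 at 0. The NK marker sum was lower in both GF libraries (43.9 and 39.4 CPM) than in SPF (81.0 and 55.9). That is the direction of the histone total, and the part of NK marker reads in it was not tested. Single genes gave much of some sums, with means of 95.6 CPM for Itgam (myeloid), 75.3 for Xbp1 (plasma cell) and 38.1 for Klrb1c (NK). Whether these reads came from other cells or from the gBT-I cells was not tested. In bulk libraries fewer cells that express a gene and less RNA per cell cannot be told apart.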

How the data were processed

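The authors deposited raw read counts by gene, as whole numbers, in 1 column for each library. The submitters' processing notes name mm10 and CASAVA, TopHat, Picard, featureCounts, Subread and edgeR. Versions, annotation and the treatment of reads that map to several places are not stated in any source used here. The kit does not mark strand, so overlapping genes on opposite strands cannot be told apart.

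The 4 libraries, 2 per group, were tested with edgeR 4.0.16 (R 4.3.3): TMM scaling, filterByExpr (11271 genes kept of 24062) and the quasi-likelihood test comparing GF with SPF, with no covariate and with two-sided p-values adjusted by Benjamini-Hochberg and a threshold of 0.05. Each standard error (SE) is the absolute log2 fold change over the root of the F statistic. The test was checked on simulated counts. Members, lists, markers and alternatives were chosen with earlier results of these data known. The text names the 4 most abundant members per class, the 4 tested members with the smallest p in each direction, and per related list the 4 with the smallest p and the most abundant; the same rule was used for the M phase list, and other names are marked. Gene models and transcripts are GENCODE M21 (all 68 members and 95.5% of tested genes matched by symbol). Alternatives used DESeq2 1.42.0, limma-voom 3.58.1, other scaling and filters, length correction, the replicate number as a block, and each library left out. P-values measure only the spread between libraries, which may be technical, since no label says that they came from separate mice. Figures were drawn with matplotlib 3.10.9.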

Additional observations from a re-analysis of the deposited data

How the results depend on the processing

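No histone cluster gene passed in any alternative run, and the adjusted p was lowest at 0.30 without SPF replicate 2. The number of all genes called was 0 with the edgeR test and 9 with DESeq2 (8 higher, 1 lower), and it ranged from 0 to 1327 when a library was left out (17 without SPF replicate 1, 1327 without SPF replicate 2). With the replicate block it was 1206, and 927 with the replicate block and the transcript length trend removed; members called stayed at 0 in both. The replicate numbers are shared, but with 2 pairs and no label on what a number marks the libraries were kept unpaired; deviations of the libraries numbered 1 correlated at 0.71 across genes. The cause of these changes was not tested.

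The histone cluster total kept its direction in all alternatives (-0.39 to -0.27 with a library left out) and was -0.10 with the length trend removed. Class totals changed by setting. H1, at -0.01, was 0.29 within number 1, -0.31 within number 2, 0.22 with the length trend removed and 0.051 per kilobase, so its direction turned. H2A was -0.97 without Hist3h2a and -0.30 with the length trend removed. H3 was 0.23 within number 1, -1.15 within number 2 and -0.090 without Hist1h3a. H4 was -0.65 within number 1, -0.19 within number 2 and -0.087 with the length trend removed. Only H1 and H2B could be summed over members with no shared 50-base word. With a library left out, class totals ranged from -0.49 to 0.47 for H1, -0.67 to -0.33 for H2A, -0.56 to -0.08 for H2B, -0.88 to -0.04 for H3 and -0.58 to -0.25 for H4.

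Fitted signs turned in 5 of the 9 tested genes that the naming rule gives, none of them called; Hist1h2bc was not followed singly. With the length trend removed, without and with the replicate block, Hist1h1c was 0.078 and 0.24, Hist3h2ba 0.28 and 0.29, Hist1h4i 0.16 and 0.092 and Hist1h4c 0.10 and 0.13. With a library left out, Hist1h1c ranged from -0.55 to 0.60, Hist1h1e from -0.041 to 0.36, Hist3h2ba from -0.67 to 0.34, Hist1h4i from -0.61 to 0.10 and Hist1h4c from -0.50 to 0.0097. Depth limits these genes, as 58 members had too few reads to test.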
